A study of Homo sapiens with 6 samples.

Results

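The microtubule-associated serine/threonine kinase (MAST) family comprises *MAST1*, *MAST2*, *MAST3*, *MAST4* and the MAST-like gene *MASTL*, also called Greatwall. The family was taken from the RNA immunoprecipitation sequencing (RIP-seq) of IGF2BP3 in WaGa cells as the rows of the count table with these 5 gene names, out of 60655 genes listed. The genes were chosen by their measured difference between IGF2BP3 immunoprecipitation (IP) and IgG IP in these libraries. Their fold changes, and whether they passed thresholds set for the whole table, are therefore given as a description and support nothing about the family. All 5 genes passed the filter on low counts, which 14507 genes of the table passed.

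WaGa is an established Merkel cell carcinoma (MCC) cell line that carries Merkel cell polyomavirus. The cells were wild type and untreated, and 1 cell line was used, so the values describe WaGa only. Lysate was incubated with 5 µg of antibody against IGF2BP3 (IGF2BP3 IP, 3 libraries) or of control IgG (IgG IP, 3 libraries), both on Protein G Sepharose beads, and the RNA that came down was sequenced as paired-end reads of 150 bp. The question was which RNAs came down more with IGF2BP3, an RNA-binding protein that regulates the stability and translation of its targets, than with the negative control. No library of input RNA was analysed here, so a level below is RNA recovered with an antibody, and in such bulk RNA fewer cells with a transcript and less of it per cell cannot be told apart.

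The MAST proteins are kinases of the AGC group. MAST1 to MAST4 carry a kinase domain next to a PDZ domain, through which they bind other proteins; MAST1 and MAST2 were described at the syntrophin and dystrophin complex and on microtubules, and MAST1 and MAST3 are best known from the nervous system. MASTL has no PDZ domain. It is a mitotic kinase that phosphorylates ENSA and ARPP19, which then inhibit protein phosphatase 2A (PP2A) bound to its B55 subunit, so that the mitotic substrates of CDK1 remain phosphorylated.

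All members lie on the plus strand of GRCh38, here with the canonical transcripts of GENCODE version 44. *MAST1* (ENSG00000105613.10) covers chr19:12833951-12874952 with 26 exons, and *MAST3* (ENSG00000099308.10) covers chr19:18097778-18151692 with 28 exons. *MAST2* (ENSG00000086015.22) covers chr1:45786987-46036122 with 29 exons, and *MAST4* (ENSG00000069020.18) covers chr5:66596380-67169593 with 29 exons. *MASTL* (ENSG00000120539.15) covers chr10:27154824-27187953 with 12 exons. The gene spans ranged from 33.1 kb for *MASTL* to 573 kb for *MAST4*, and the coding sequences from 2637 bases for *MASTL* to 7869 bases for *MAST4*.

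The family members share their kinase domain, which raises the question of whether a read can be told apart between them. The 60 coding bases with the most positions identical in all members are shown for this reason. They code for the catalytic loop of the kinase domain, cross an exon junction in each gene and were read from the canonical transcripts, 5′ to 3′. Capitals mark the 35 positions that are identical in all 5 genes.
MAST1: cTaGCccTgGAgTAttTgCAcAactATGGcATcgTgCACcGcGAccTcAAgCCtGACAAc
MAST2: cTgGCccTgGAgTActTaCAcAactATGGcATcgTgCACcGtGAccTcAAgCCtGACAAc
MAST3: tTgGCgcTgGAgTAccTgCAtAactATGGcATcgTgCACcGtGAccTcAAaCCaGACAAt
MAST4: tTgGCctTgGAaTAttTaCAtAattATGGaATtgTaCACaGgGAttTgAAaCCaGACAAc
MASTL: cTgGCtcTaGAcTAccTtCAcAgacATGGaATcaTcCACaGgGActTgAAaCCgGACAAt

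Within this window *MAST2* had 56 of 60 bases the same as *MAST1*, *MAST3* had 50, *MAST4* 43 and *MASTL* 40. The windows span chr19:12864889-12865046 in exons 13 and 14 of *MAST1*, chr1:46025757-46027731 in exons 16 and 17 of *MAST2* and chr19:18131989-18134579 in exons 15 and 16 of *MAST3*. They span chr5:67131893-67133514 in exons 16 and 17 of *MAST4* and chr10:27159718-27161112 in exons 3 and 4 of *MASTL*. Over the aligned coding sequences, 59.96% to 65.8% of bases were identical between any pair of *MAST1* to *MAST4*, and 35.6% to 37.4% between *MASTL* and each of the others. The longest stretch shared without a mismatch by any pair of canonical transcripts was 42 bases, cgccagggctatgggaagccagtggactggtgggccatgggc, in *MAST2* and *MAST3*. It is shorter than the reads of 150 bp, and the other pairs shared 11 to 30 bases at most.

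The libraries held 9758759 to 14886414 counts on genes, of which 1356 to 2169 fell on the MAST family. Of 10 Merkel cell and neuroendocrine marker genes none was at 0 in all libraries, and their summed TPM (transcripts scaled for length and depth) were 2161 to 3279 in IgG IP and 2551 to 3391 in IGF2BP3 IP. Markers of endothelial cells, leukocytes and melanocytes each summed to at most 1.23 TPM and those of keratinocytes to at most 9.41 TPM. The fibroblast markers summed to 35.8 to 54.1 TPM in IgG IP and 29.2 to 47.3 TPM in IGF2BP3 IP, nearly all from *DCN*, with *COL3A1* at 0. RNA of *IGF2BP3* itself had a log2 fold change of -0.04 (SE 0.07). *GAPDH*, which normalized the study's RT-qPCR and not these libraries, was at 0.66 (SE 0.20, adjusted p = 0.206). With the replicate number as a block *GAPDH* passed, at 0.66. Adjusted p-values here and below are from the quasi-likelihood test of edgeR with Benjamini-Hochberg adjustment across the whole table.

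The 4 PDZ-containing members and *MASTL* were recovered at very different levels. On the scale of TPM, which divides by transcript length and allows genes to be compared, *MASTL* had a mean of 36.5 ± 4.17 TPM (SD, n = 3) in IgG IP and 39.3 ± 5.02 TPM in IGF2BP3 IP. It took 76.4% to 80.1% of the family's TPM in IgG IP and 68.9% to 73.2% in IGF2BP3 IP, while its own TPM overlapped between the groups. The share also depends on the levels of the other members, which were chosen by their difference. It is therefore no separate result. In IgG IP the order below it was *MAST1* at 4.03 ± 1.20 TPM, *MAST2* at 3.06 ± 1.17 TPM, *MAST4* at 1.84 ± 0.311 TPM and *MAST3* at 1.46 ± 0.316 TPM. In that order each of the lower neighbours overlapped, and a gap beyond the spread of the libraries lay between *MASTL* and *MAST1*.

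In IGF2BP3 IP the order was *MASTL*, *MAST1* at 6.82 ± 0.533 TPM, *MAST2* at 4.06 ± 0.265 TPM, *MAST3* at 2.71 ± 0.301 TPM and *MAST4* at 2.61 ± 0.549 TPM. Here the levels of *MAST3* and *MAST4* overlapped, and the other neighbours did not. *MAST3* thus had the lowest mean level of the family in IgG IP, and a mean level next to that of *MAST4* in IGF2BP3 IP.

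*MAST3*, a kinase found mainly in neurons, had the largest fold change of the family. Its reads are given as CPM, counts scaled to library sizes after TMM normalization, which compares 1 gene between libraries and not genes with each other. In IgG IP replicates 1, 2 and 3, *MAST3* had 67, 105 and 108 counts, or 7.26, 7.04 and 8.71 CPM. In IGF2BP3 IP replicates 1, 2 and 3 it had 161, 174 and 157 counts, or 13.5, 13.1 and 12.8 CPM. The lowest IGF2BP3 IP library was above the highest IgG IP library.

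The mean of *MAST3* was 7.67 ± 0.909 CPM in IgG IP and 13.1 ± 0.378 CPM in IGF2BP3 IP (SD, n = 3 each), a fitted log2 fold change of 0.78 (SE 0.14, 95% confidence interval 0.45 to 1.10), or 1.71-fold. Between libraries with the same replicate number the log2 difference was 0.89, 0.90 and 0.55. The TPM values of *MAST3* were 1.25, 1.30 and 1.82 in IgG IP and 2.56, 2.52 and 3.06 in IGF2BP3 IP, again without overlap.

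*MAST1*, a kinase of the developing brain, followed. It had 73, 118 and 86 counts in IgG IP replicates 1 to 3, or 7.91, 7.91 and 6.94 CPM. In IGF2BP3 IP it had 145, 154 and 158 counts, or 12.2, 11.6 and 12.8 CPM. All 3 IGF2BP3 IP libraries were above all 3 IgG IP libraries, and the spread within each group was small beside the gap between them. The means were 7.59 ± 0.562 CPM and 12.2 ± 0.607 CPM, and the fitted log2 fold change was 0.69 (SE 0.14, 95% confidence interval 0.37 to 1.00), or 1.61-fold. The same-numbered differences were 0.62, 0.55 and 0.88. On the TPM scale *MAST1* was at 4.82, 4.63 and 2.65 in IgG IP and 6.92, 6.24 and 7.29 in IGF2BP3 IP, where the low value of IgG IP replicate 3 stood further from the other IgG IP libraries than it did in CPM.

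*MAST2*, a syntrophin-binding kinase, differed less. It had 97, 222 and 176 counts in IgG IP replicates 1 to 3, or 10.5, 14.9 and 14.2 CPM, and 185, 235 and 192 counts in IGF2BP3 IP, or 15.5, 17.75 and 15.6 CPM. IgG IP replicate 1 was the low library of its group, and the groups did not overlap in CPM. On the TPM scale *MAST2* was at 1.86, 4.2 and 3.11 in IgG IP and 3.86, 4.36 and 3.96 in IGF2BP3 IP. There the groups overlapped, with IgG IP replicate 2 above IGF2BP3 IP replicates 1 and 3. The fitted log2 fold change was 0.30 (SE 0.16), and its 95% confidence interval of -0.06 to 0.65 included 0. The same-numbered differences were 0.56, 0.25 and 0.14. Without IgG IP replicate 1 the log2 fold change of *MAST2* was 0.17.

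*MAST4*, the longest gene of the family, had 75, 191 and 153 counts in IgG IP, or 8.13, 12.8 and 12.3 CPM, and 125, 199 and 148 counts in IGF2BP3 IP, or 10.5, 15.03 and 12.03 CPM. The groups overlapped in CPM, and replicate 1 was the lowest library in both. The fitted log2 fold change was 0.16 (SE 0.21, 95% confidence interval -0.30 to 0.63), with same-numbered differences of 0.37, 0.23 and -0.04. Without IgG IP replicate 1 it was -0.00, and without IGF2BP3 IP replicate 2 it was 0.00494, so the *MAST4* value rested on either of these libraries.

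*MASTL*, the most highly recovered member, showed no difference that exceeded the spread between libraries. It had 1044, 1533 and 1251 counts in IgG IP, or 113, 103 and 101 CPM, and 1315, 1383 and 1152 counts in IGF2BP3 IP, or 110, 104 and 93.6 CPM. The groups overlapped, with the lowest value in IGF2BP3 IP replicate 3. The fitted log2 fold change was -0.04 (SE 0.09). Its 95% confidence interval of -0.24 to 0.17 was the narrowest of the family and lay wholly below the minimum of 0.585 that corresponds to 1.5-fold.

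**Figure D1:**
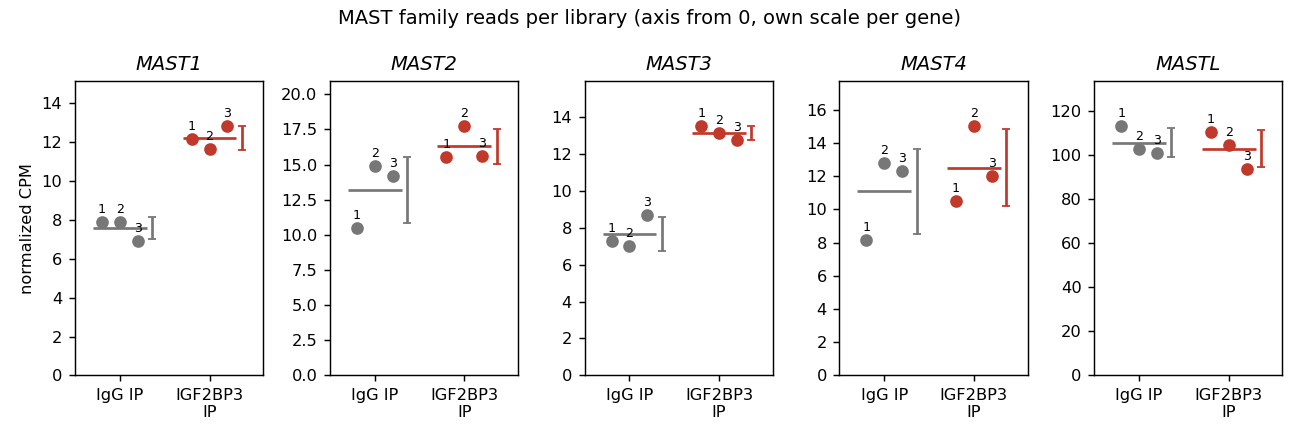
Normalized CPM (y axis, from 0, own scale per gene) of the 5 MAST family genes in each library of IgG IP (grey) and IGF2BP3 IP (red). Points are libraries labelled by replicate number, the horizontal line is the mean and the bar beside it the SD (n = 3). The groups are apart for *MAST1*, *MAST2* and *MAST3* and overlap for *MAST4* and *MASTL*.

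Summed over the family, the reads were higher in IGF2BP3 IP in each same-numbered pair, while the groups overlapped in both CPM and TPM. The family had 147, 145 and 143 CPM in IgG IP and 162, 162 and 147 CPM in IGF2BP3 IP, and IGF2BP3 IP replicate 3 matched IgG IP replicate 1 to the nearest CPM. In TPM the sums were 41.2, 51.8 and 47.8 in IgG IP and 50.4, 61.0 and 55.2 in IGF2BP3 IP. Between 2 and 3 same-numbered differences were positive in *MAST1* to *MAST4*, while for *MASTL* only replicate 2 was positive. The plot of fitted changes shows these differences beside their intervals.

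**Figure D2:**
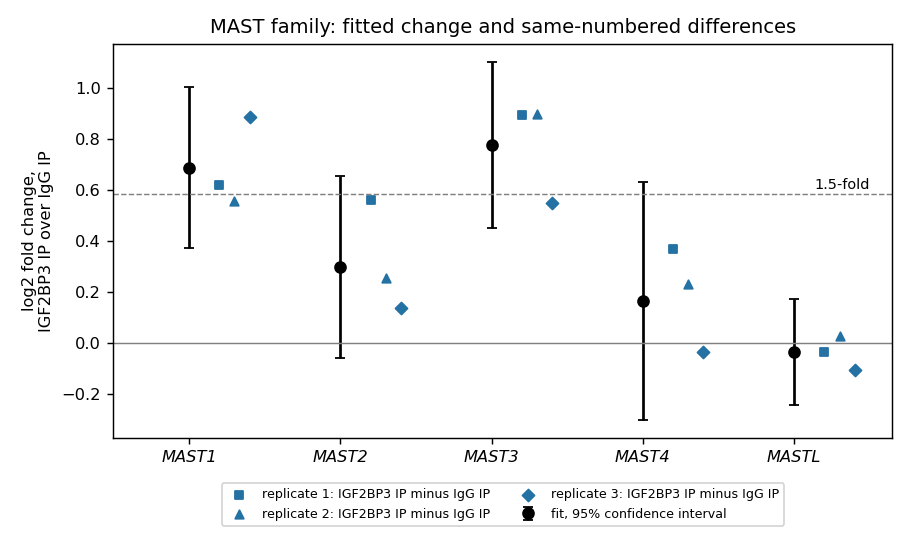
Log2 fold change of IGF2BP3 IP over IgG IP (y axis) for the 5 MAST family genes. Black points are the edgeR fit with its 95% confidence interval, blue symbols are the differences between libraries of the same replicate number, and the dashed line marks 1.5-fold. The intervals of *MAST1* and *MAST3* lie above 0 and those of *MAST2*, *MAST4* and *MASTL* include it.

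Following the study's thresholds, enriched RNAs were those that reached 1.5-fold and whose adjusted p-value over all tested genes was under 0.05. Of the 5 members *MAST3* passed both, and of all 14507 tested genes 169 did (1.16%). *MAST1* passed the fold change minimum and not the p-value. In 3 of the 5 members every IGF2BP3 IP library was above every IgG IP library in CPM, as in 12.0% of all tested genes. No member was called lower, and neither was any other gene (0% of tested genes by edgeR's quasi-likelihood test, with 449 genes lower at an unadjusted p under 0.05, and 0 lower with DESeq2). Because these values chose the members, the counts are not evidence about the family. The median log2 fold change over all tested genes was -0.01. *MAST3* was at the 97.7th percentile of log2 fold changes over these genes, *MAST1* at 96.6, *MAST2* at 83.3, *MAST4* at 72.6 and *MASTL* at 44.2.

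The number of members called changed with the fit. When replicate number entered as a block, 2 members were enriched, *MAST1* and *MAST3*, against 517 genes in all (3.56%). DESeq2, the test named in the study's methods, called the same 2 members, against 281 genes (2.22%). *MAST3* was not called after any single library was left out, when its log2 fold change was 0.71 to 0.88 and 0 to 244 genes were called in all. The plot of settings shows the fold changes under each alternative. Over the 21 alternatives the log2 fold change of *MAST3* was 0.60 to 0.88, that of *MAST1* 0.50 to 0.79, that of *MAST2* 0.16 to 0.47, that of *MAST4* -0.00 to 0.48 and that of *MASTL* -0.09 to 0.11.

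**Figure D3:**
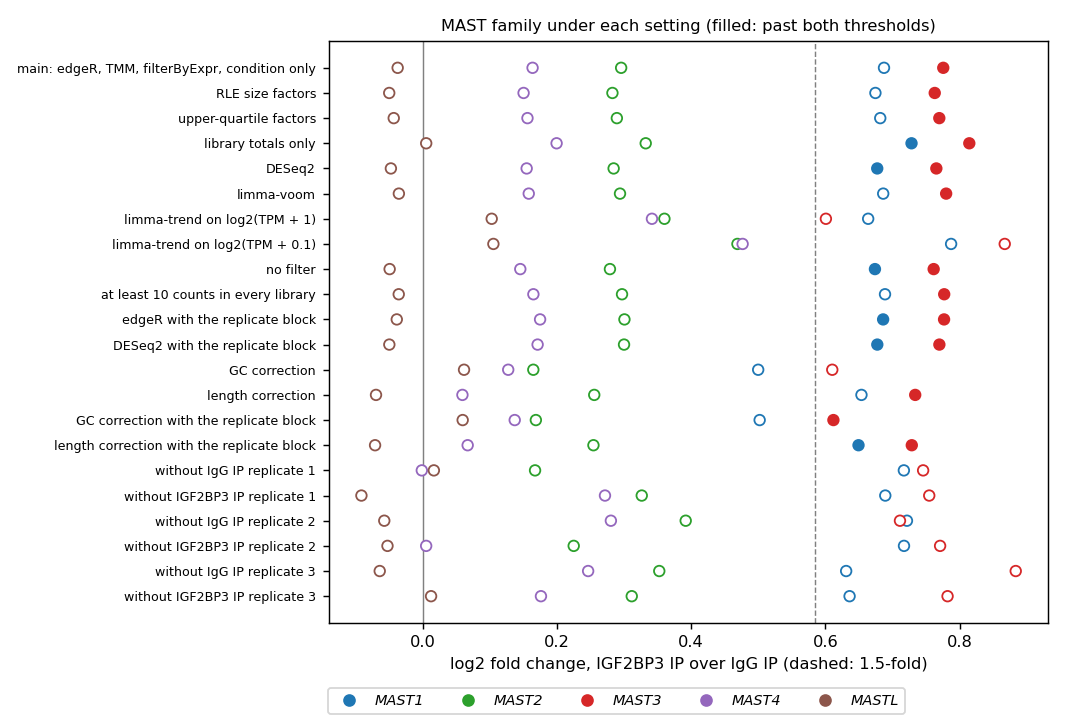
Log2 fold change of IGF2BP3 IP over IgG IP (x axis) of each MAST family gene under the main fit (top) and 21 alternatives (rows). Filled circles passed both thresholds over all genes and the dashed line marks 1.5-fold. *MAST1* and *MAST3* stay to the right of the other members in each row, and *MASTL* stays near 0.

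The members with the larger fold changes were those with GC-rich transcripts. The GC content of the canonical transcript was 63.6% for *MAST1*, 60.8% for *MAST3*, 58.3% for *MAST2*, 52.0% for *MAST4* and 41.2% for *MASTL*. The median over 11867 protein-coding transcripts of tested genes was 47.8%, and over the 165 enriched genes among them 56.4%. Across 14479 tested genes the log2 fold change correlated with GC content with a Spearman's rho of 0.413, a description over genes that share the same 6 libraries. With a correction for GC content within each library, the log2 fold change was 0.61 for *MAST3*, 0.50 for *MAST1*, 0.16 for *MAST2*, 0.13 for *MAST4* and 0.06 for *MASTL*. *MAST1* was then under the 1.5-fold minimum, and no member was called, while *MAST3* was called when the replicate block was added to this correction.

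**Figure D4:**
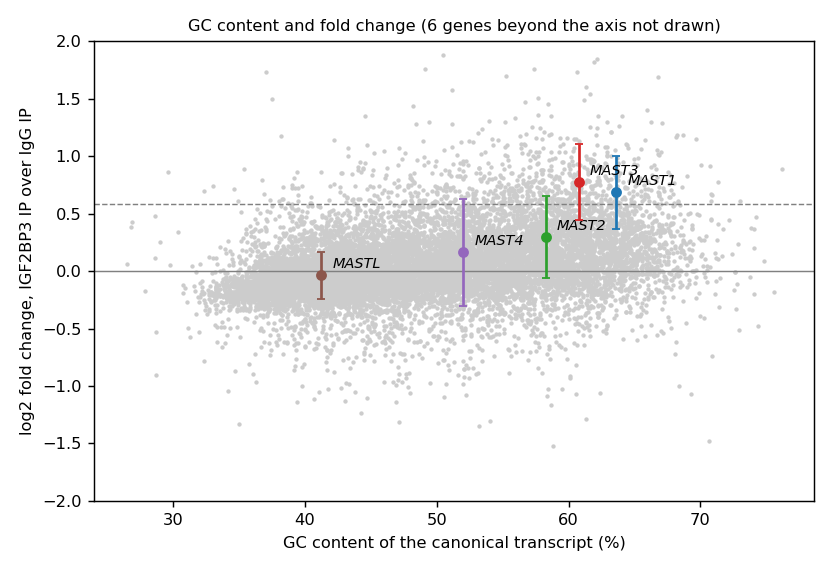
GC content of the canonical transcript in percent (x axis) against the log2 fold change of IGF2BP3 IP over IgG IP (y axis). Grey points are 14479 tested genes, of which 6 lie beyond the axis, coloured points are the MAST family with 95% confidence intervals, and the dashed line marks 1.5-fold. *MAST1* and *MAST3*, with 63.6% and 60.8% GC, are the highest members, and *MASTL*, with 41.2%, the lowest.

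The length of the 3′ untranslated region was mixed among the members, and that of the coding sequence was not. The 3′ untranslated region was short in *MAST1* (82 bases) and *MAST2* (56 bases) and longer in *MAST3* (1961 bases), *MAST4* (2542 bases) and *MASTL* (1417 bases), against a median of 1406 bases. Coding sequences were long in all members, from the 80.9th percentile for *MASTL* to the 98.7th for *MAST4*. Short sequence motifs reported for IGF2BP proteins were counted on the sense strand of the canonical transcripts. GGAC, the core of the N6-methyladenosine motif, occurred 6.39 times per kb in *MAST1*, 5.75 in *MAST2*, 4.98 in *MAST3*, 4.59 in *MAST4* and 2.90 in *MASTL* (median 3.57). CATT occurred 0.824 times per kb in *MAST1*, 1.66 in *MAST3*, 3.31 in *MAST2*, 3.56 in *MAST4* and 4.60 in *MASTL* (median 4.26), the reverse of their order by GC content. ACACA occurred 0.726 to 1.57 times per kb in the members (median 1.00). As 99.4%, 98.4% and 87.9% of all these transcripts hold GGAC, CATT and ACACA, a match marks no site.

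Genes that overlap a member could share its reads, since the sources used here do not state whether strand was used in counting. *HOOK2* and *RTBDN* lie opposite *MAST1* and share no exon bases with it. Their log2 fold changes were -0.03 (SE 0.16, adjusted p = 0.972) and 0.23 (SE 0.25, adjusted p = 0.758), and neither passed the test. *MAST3-AS1* lies opposite *MAST3* and shares 463 of its 7249 exon bases, and it had 0 to 4 counts per library. *YME1L1* and *ACBD5* lie opposite *MASTL*, share 443 and 327 of its 4660 exon bases, and had log2 fold changes of -0.01 (SE 0.09) and -0.11 (SE 0.07). *MAST4-AS1* had 7 to 28 counts and a log2 fold change of -0.68 (SE 0.44, adjusted p = 0.573). *MIR6794*, *TMA16P2*, *IL12RB1*, *MAST4-IT1* and ENSG00000248803 had at most 2 counts in any library.

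The RNAs most like each member over the 6 libraries were sought by Pearson correlation of log2 CPM among 10957 genes with a mean of at least 50 counts. They were *TMEM39B* (r = 0.997) and *KCNAB2* (r = 0.995) for *MAST1*, and *SLC43A3* (r = 0.995) and *SYT9* (r = 0.994) for *MAST3*. For *MAST2* they were *LNX1* and *HEATR5A* (r = 0.999 each), for *MAST4* *ATG2B* (r = 0.995), and for *MASTL* *SLC25A24* and *SERP1* (r = 0.990 each). With so many candidates and 6 libraries, high values are to be found for any gene. Within the family, *MAST1* and *MAST3* had r = 0.901, and *MAST2* and *MAST4*, both lowest in IgG IP replicate 1, had r = 0.889. The r within the family include the difference between the groups, by which the members were chosen. They are a description only. *MASTL* had a negative r with every other member, from -0.592 to -0.217.

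Partners, relatives and microtubule-associated genes were grouped in 5 lists. In the Greatwall pathway 1 of 24 tested genes rose and 0 fell (1.16% and 0% over all genes), and the median log2 fold change was -0.05. By edgeR 3 were higher and 0 lower at an unadjusted p under 0.05 (9.72% and 3.1% over all genes). The enriched gene was *PPP2R1A*, the scaffold subunit of PP2A, with 67.9 ± 2.03 CPM in IgG IP and 109.4 ± 7.38 CPM in IGF2BP3 IP (log2 fold change 0.69, SE 0.08, adjusted p = 0.00963, edgeR's quasi-likelihood test). Its adjusted p was 7.26e-11 to 0.668 over the alternatives, and the call was lost with limma-trend on TPM at either pseudocount. It was also lost when replicate 2 (adjusted p = 0.0866) or 3 (0.0698) of the IgG IP or replicate 2 of the IGF2BP3 IP (0.0948) was left out. Without these libraries the log2 fold change was 0.66 to 0.70. The substrates of MASTL did not pass the test, with a log2 fold change of -0.16 for *ENSA* (SE 0.07, adjusted p = 0.411) and -0.04 for *ARPP19* (SE 0.09, adjusted p = 0.903). Nor did *CDK1*, the mitotic kinase (-0.15, SE 0.11), the B55 subunits *PPP2R2A* (-0.10, SE 0.08) and *PPP2R2D* (0.06, SE 0.09), or *PPP1CC*, a catalytic subunit of protein phosphatase 1 (-0.07, SE 0.09). With the replicate block in edgeR's quasi-likelihood test the adjusted p was 0.0435 for *ENSA* and 0.653 for *ARPP19*. *ENSA*, at -0.157 in that fit, stayed short of a 1.5-fold decrease. *PPP1CA*, another catalytic subunit of protein phosphatase 1, was at 0.54 (SE 0.12, adjusted p = 0.0729) without the block. With the block it was at 0.542 (adjusted p = 1.06e-05, same test), short of a 1.5-fold increase.

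In the dystrophin, utrophin and syntrophin complex, to which MAST1 and MAST2 bind, 1 of 14 tested genes rose and 0 fell (1.16% and 0% over all genes), with a median log2 fold change of 0.12. By edgeR 2 were higher and 0 lower at an unadjusted p under 0.05 (9.72% and 3.1% over all genes). The enriched gene was *DAG1*, which encodes dystroglycan, with 27.5 ± 2.82 CPM in IgG IP and 49.1 ± 6.50 CPM in IGF2BP3 IP (log2 fold change 0.83, SE 0.13, adjusted p = 0.0237, edgeR's quasi-likelihood test). Its adjusted p was 1.16e-08 to 0.867 over the alternatives, and the call was lost with limma-trend on TPM at either pseudocount. It was also lost when replicate 2 (0.0903) or 3 (0.110) of the IgG IP, or replicate 2 (0.160) or 3 (0.145) of the IGF2BP3 IP, was left out. Without these libraries the log2 fold change was 0.74 to 0.88. *SGCB*, a sarcoglycan, had a log2 fold change of -0.18 (SE 0.12) and did not pass. With the replicate block in edgeR's quasi-likelihood test its adjusted p was 0.0497, at -0.17, short of a 1.5-fold decrease.

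Of 6 other MAST partners and substrates that were tested, 0 passed in either direction by edgeR, DESeq2 or limma-voom, and 0 had an unadjusted p under 0.05 by edgeR. Their median log2 fold change was -0.07. The chaperones *HSP90AA1* and *HSP90AB1* were at 0.03 (SE 0.08) and 0.07 (SE 0.07).

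Among 39 tested genes of other AGC kinases 0 passed by edgeR, with 5 higher and 1 lower at an unadjusted p under 0.05 (9.72% and 3.1% over all genes), and 1 passed with DESeq2. The median log2 fold change was -0.02. *PKN2* was at -0.23 (SE 0.07, adjusted p = 0.221) and *LATS1* at -0.09 (SE 0.07). With the replicate block *GRK2* passed, at a log2 fold change of 0.72. In that fit *PKN2* had an adjusted p of 0.00856 by edgeR's quasi-likelihood test, at -0.23, short of a 1.5-fold decrease.

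Among 32 tested microtubule-associated proteins and their kinases 0 passed by edgeR, with 10 higher and 0 lower at an unadjusted p under 0.05 (9.72% and 3.1% over all genes), and 1 passed with DESeq2. The median log2 fold change was 0.16, against -0.01 over all genes. *STMN1* was at -0.13 (SE 0.08) and *MAP2* at -0.01 (SE 0.08). With the replicate block *CLIP2* and *MARK4* passed, at log2 fold changes of 0.69 and 0.83. These and *GRK2* were named after their values were seen. The plot of related genes sets these lists beside the family.

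**Figure D5:**
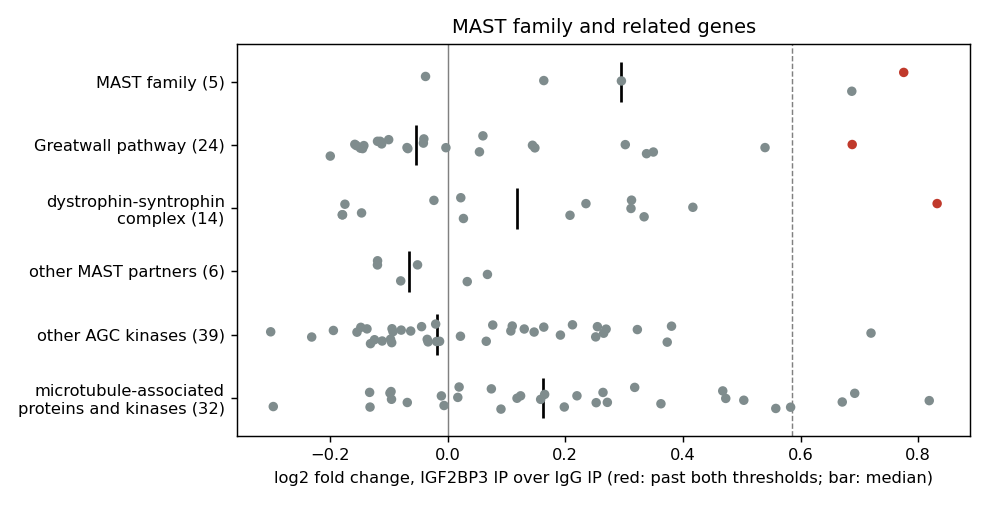
Log2 fold change of IGF2BP3 IP over IgG IP (x axis) of the 5 MAST family genes and of the tested genes of 5 lists (rows, number of genes in parentheses). Each point is a gene, red where it passed both thresholds over all genes, the bar is the median and the dashed line marks 1.5-fold. The red points are *MAST3*, *PPP2R1A* and *DAG1*.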

How the data were processed

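RIP-seq libraries of WaGa cells were grouped by their labels into 3 IgG IP and 3 IGF2BP3 IP. Per the labels and the study's methods, the authors used STAR 2.7.9a for alignment (GRCh38) and RSEM with GENCODE version 37. The deposited counts are whole numbers per gene that were not normalized, and the program that made them and its use of strand are not given in the sources used here. The deposited TPM values are the RSEM estimates per transcript length, used for levels between genes; the FPKM values were not used.

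In R 4.3.3, edgeR 4.0.16 filtered the counts (filterByExpr), scaled them by TMM and fitted a quasi-likelihood model of condition alone, with Benjamini-Hochberg adjustment over all 14507 genes tested. The SD between libraries and the SE of the fit may be technical, since the labels do not say that replicates came from separate cultures. The biological coefficient of variation was 13.4%. Alternatives were other normalizations and filters, DESeq2 1.42.0, limma 3.58.1 (voom, and trend on log2(TPM + 1) or log2(TPM + 0.1)), per-library loess corrections for GC content and transcript length (span 0.5), the replicate block, and leaving out each library. Deviations from the group means correlated across genes between same-numbered libraries (0.543, 0.256 and 0.218 in replicates 1, 2 and 3). Crossed pairs of replicates 2 and 3 had 0.253 and 0.259, so these values cannot tell how the libraries of replicates 2 and 3 pair. The replicate numbers were taken as pairs without a stated lysate. The replicate block and the same-numbered differences rest on that choice. Several of the fits were run on simulated counts with 200 genes changed, by larger folds than that of any member. The simulated counts held no replicate, GC or length effect, so they cannot check the replicate block or the corrections.

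Annotation came from GENCODE version 44, in which 60437 of 60655 identifiers had a canonical transcript, and coding sequences were aligned with MAFFT 7.526. The members and lists were chosen with earlier results of these data known. Genes named are the members, from each list those past the thresholds and the 2 with the highest mean CPM, *ENSA*, *ARPP19*, *CDK1*, *PPP2R2A* and *PPP2R2D*, genes overlapping a member, the 2 RNAs most like each member, *IGF2BP3* and *GAPDH*. Some genes under this rule are not reported here.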

Additional observations from a re-analysis of the deposited data

How the results depend on the processing

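Under the alternatives, *MAST1*, *MAST2* and *MAST3* had positive log2 fold changes throughout. *MAST1* to *MAST4* had 67 to 235 counts per library. Enriched genes numbered 281 with DESeq2, 321 with DESeq2 and the replicate block, 517 with the block in edgeR, 359 without a filter, 111 with the GC correction, 345 with the GC correction and the block, 466 with the length correction and the block, and 0 with limma-trend at either pseudocount, which also moved the median log2 fold change of all genes to 0.11 and 0.135. Leaving out 1 library gave 0 to 244 enriched genes, with the fewest when replicate 2 (0 genes) or 3 (23 genes) of the IGF2BP3 IP or replicate 3 (7 genes) or 2 (19 genes) of the IgG IP was missing, in fits with fewer samples. Lower genes numbered 15 with the replicate block, 1 with DESeq2 and the block, 26 with the GC correction and the block, 12 with the length correction and the block and 1 without a filter.

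The members past the thresholds were 2 with library totals only, DESeq2, no filter, the replicate block in edgeR, DESeq2 with the block, and the length correction with the block. They were 0 with limma-trend at either pseudocount, 0 with the GC correction and 0 after leaving out any of the 6 libraries. Enriched list genes were 4 with DESeq2, 4 without a filter, 5 with the replicate block, 4 with DESeq2 and the block, 4 with the length correction, 6 with the length correction and the block, 0 with limma-trend at either pseudocount, and 0 to 5 after leaving out 1 library. The replicate block changed no other call of a gene named here than those of *MAST1*, *GAPDH*, *GRK2*, *CLIP2* and *MARK4*.

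Values near 0 changed sign in some settings, and the cause was not tested. *MAST4* was at -0.00155 without IgG IP replicate 1. Leaving out each library in turn gave *MAST4* values up to 0.28, *MASTL* values from -0.0916, *ARPP19* values from -0.108, *MAP2* values from -0.0781 and *HSP90AA1* values up to 0.0746. With the GC correction *MASTL* was at 0.0614, *ARPP19* 0.110, *PPP1CC* 0.0393, *CDK1* 0.0304, *PPP2R2A* 0.0339, *LATS1* 0.0290 and *MAP2* 0.0776. With the replicate block added to the GC correction these were at 0.0593, 0.107, 0.0403, 0.0352, 0.0337, 0.0280 and 0.0769. With limma-trend on log2(TPM + 1) *MASTL* was at 0.103, *ARPP19* 0.0703, *PPP1CC* 0.0629, *CDK1* 0.00754, *PPP2R2A* 0.118, *LATS1* 0.0737, *STMN1* 0.0240 and *MAP2* 0.151. With log2(TPM + 0.1) they were at 0.105, 0.0706, 0.0631, 0.00755, 0.119, 0.0754, 0.0241 and 0.153. With library totals only, where the median log2 fold change of all genes was 0.0342 against -0.00625, *MASTL* was at 0.00498, *ARPP19* 0.00204 and *MAP2* 0.0317, each below that median. Without IgG IP replicate 1 *MASTL* was at 0.0164, *ARPP19* 0.00258 and *MAP2* 0.00979. Without IGF2BP3 IP replicate 3 *MASTL* was at 0.0123, *ARPP19* 0.0145, *MAP2* 0.00868 and *HSP90AA1* -0.0284. *MAP2* was at 0.0163 without IGF2BP3 IP replicate 1.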
